A study of Mus musculus with 10 samples.

Results

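P19 cells, a pluripotent mouse embryonal carcinoma line, were sequenced after 24 h and after 48 h of Larp1 depletion, and the comparison addresses how mRNA abundance and poly(A) tails differ with longer depletion. The undifferentiated cells were transfected with 1 siRNA against Larp1 (siLarp1) or with a pool of scrambled siRNAs (siCtl), and those harvested at 48 h received a second transfection 24 h after the first. The libraries described here are the 2 siLarp1 libraries at 48 h (numbered 24 and 25 in the data) and the 3 siLarp1 libraries at 24 h (numbered 19, 21 and 22), 5 of the 10 libraries of the series, chosen by their names. The siCtl libraries carry the same numbers, so a library named by its number alone is a siLarp1 library. The table's own condition field gives the treatment and time of each library, but not which numbered replicate of the labels it is. The remaining 5 are siCtl libraries, 3 at 24 h and 2 at 48 h, and stand beside them. Nanopore direct RNA sequencing reads 1 RNA molecule at a time, together with its tail. Of 724239 siLarp1 alignments to mRNA transcripts with a tail estimate of PASS quality, 693304 remained without mitochondrial transcripts and annotated pseudogenes. These were 119863, 133757 and 157054 in the libraries at 24 h and 162076 and 120554 in those at 48 h.

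The siLarp1 libraries at 24 h were pooled with each other and the siCtl libraries with each other, in 2 preparations per treatment by the study's methods and in 3 runs in the table, while all 4 libraries at 48 h shared 1 pool. Pool, second transfection and time of depletion therefore cannot be told apart in either treatment. At 24 h, treatment and pool also coincide. Differences between the treatments may therefore hold the difference between these pools, which permuting treatment labels cannot separate. The study's methods call the replicates biological, but whether they were separate cultures is not given in the sources used here, so p-values measure the spread between these libraries. Reads also began further from the annotated 5′ end at 48 h. The median first aligned position was nucleotide 108, 115 and 106 at 24 h and 181 and 158 at 48 h in siLarp1 libraries. It was 104, 101 and 105 at 24 h and 120 and 184 at 48 h in siCtl libraries.

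LARP1 is an RNA-binding protein that recognises the cap and the first nucleotides of mRNAs with a 5′-terminal oligopyrimidine motif, the TOP mRNAs. These encode the ribosomal proteins and several translation factors, and their translation follows mTOR signalling. LARP1 also binds poly(A)-binding protein and protects the tails and the stability of TOP mRNAs.

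Larp1 itself was read rarely. The siLarp1 libraries held 4, 6 and 3 reads at 24 h and 3 and 3 reads at 48 h, which is 33.4, 44.9 and 19.1 reads per 1000000 kept reads (RPM) and then 18.5 and 24.9 RPM. The siCtl libraries held 75.9, 84.2 and 85.0 RPM at 24 h and 169 and 123 RPM at 48 h. The siLarp1 values of both times overlapped, and each was below every siCtl value. The ratio of the siLarp1 mean to the siCtl mean was 0.397 at 24 h and 0.149 at 48 h. With 19 reads in all, Larp1 was below the minimum of 30 reads for testing. With a minimum of 10 reads, its change within siLarp1 cells was −0.45 on the log2 scale (SE 0.65, limma, adjusted p = 0.880), and that in siCtl cells was 0.77 (adjusted p = 0.195).

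The labelled cell type was checked against its markers. Pou5f1, a core pluripotency factor, had 2570, 2490 and 2910 RPM at 24 h and 2968 and 3028 RPM at 48 h. Of 34 genes in a list of germ-layer differentiation, 12 were at 0 in all 5 siLarp1 libraries, among them the endoderm markers Gata6, Sox17 and Afp and the neural marker Pax6. Another 9 had at most 1 read in any of these libraries, and 13 had more. Sparc, a matrix protein of parietal endoderm and other cells, had 142 to 249 RPM, and Tubb3, a neuronal tubulin, 33.2 to 50.9 RPM. The summed level of the list was 384, 329 and 516 RPM at 24 h and 722 and 995 RPM at 48 h, so the sum was higher at 48 h without overlap. T was its most abundant member in both libraries at 48 h, and T alone went from a mean of 65.2 to 303 RPM. The sum was not taken for siCtl cells, where T rose by 2.32 on the log2 scale.

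Abundance differed at 48 h in few genes. Among 3033 genes with at least 30 siLarp1 reads, 14 rose (0.462%) and 15 fell (0.495%) in siLarp1 cells (limma voom, Benjamini-Hochberg adjusted p under 0.05). All 15 that fell were ribosomal protein genes or, in 1 case, an annotated copy of one. The genes that rose included T, Fst and Tdgf1 of early development and the RNA-binding proteins Ptbp1, Hnrnpa2b1 and Grsf1. The 48 h and 24 h values did not overlap in any of the 29, which were picked on these same values, so this lends the calls no support. Over all genes tested 14.8% were higher and 10.5% lower without overlap. Unadjusted p-values under 0.05 were reached by 213 genes that were higher and 120 that were lower. In siCtl cells 34 genes rose (1.12%) and 11 fell (0.363%). The counts depended on single libraries. Without library 24, 9 genes rose and 3 fell, and 8 of the 29 genes kept the call. Without library 19, 9 rose and 6 fell, without library 22, 9 rose, and without library 25, 9 fell, and 15, 16 and 15 of the 29 kept the call. Fst, D10Wsu102e, Vmn2r97, Rpl39 and Rps26-ps1 were the 5 of the 29 that kept the call when any 1 siLarp1 library was left out.

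**Figure D1:**
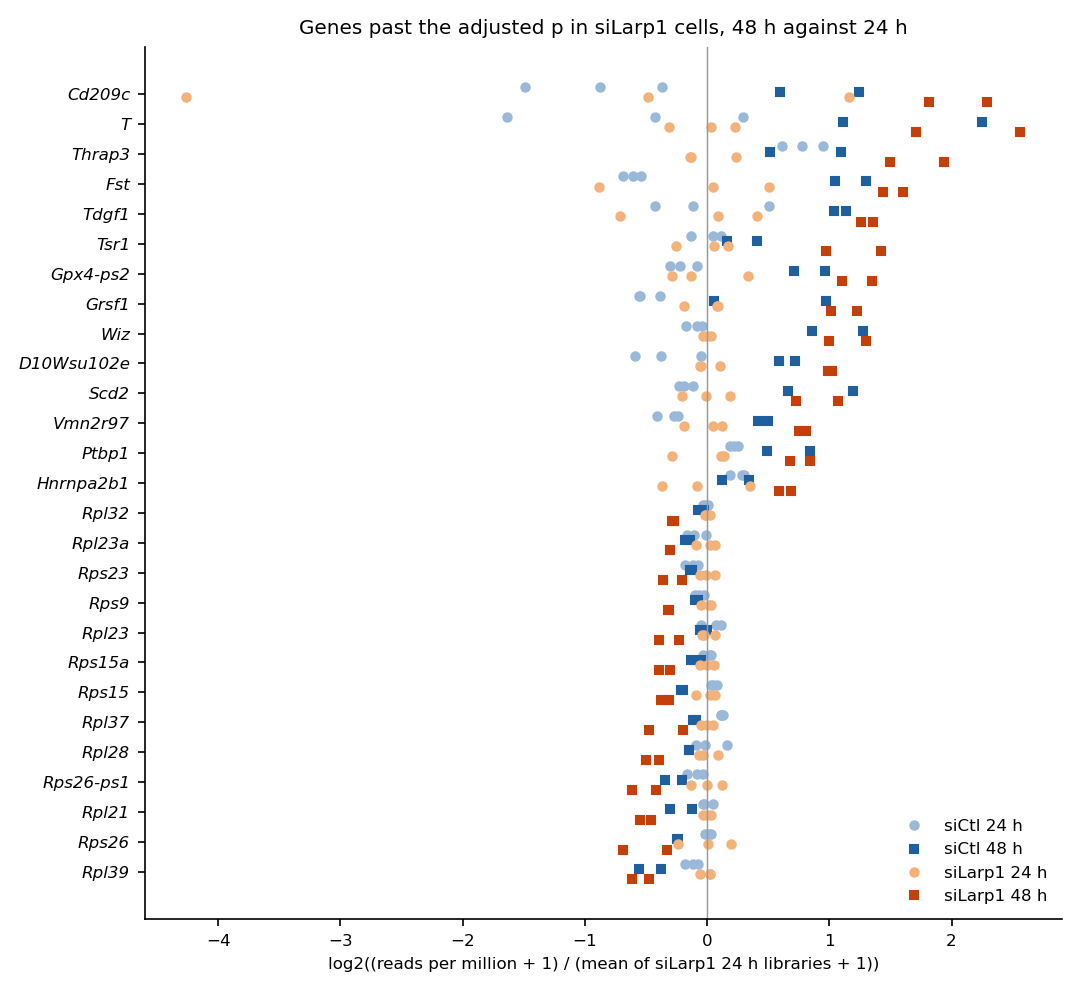
Abundance of 27 of the 29 genes that rose or fell in siLarp1 cells, 1 point per library, as log2 of RPM plus 1 relative to the mean of the siLarp1 libraries at 24 h. Circles are libraries at 24 h and squares libraries at 48 h, in blue for siCtl and in orange and red for siLarp1. The red squares lie apart from the light orange circles in every gene drawn, 14 that rose and 13 that fell, all picked on these same values.

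T, Fst and Tdgf1, known from early development, rose by 1.35 to 2.04 on the log2 scale. T (Brachyury), the T-box factor of the primitive streak and mesoderm, had 66.7, 52.3 and 76.4 RPM at 24 h and 216 and 390 RPM at 48 h. Both libraries at 48 h were far above those at 24 h, a log2 fold change of 2.04 (SE 0.40, limma, adjusted p = 0.00171) that rested on 8, 7 and 12 reads against 35 and 47. The gene lies at chr17:8434423-8442496 (GRCm38). Without library 25 the change was 1.67 and missed the threshold (limma, adjusted p = 0.0617). In siCtl cells T rose by 2.32 on the log2 scale. It was the 1 of 3 tested genes of the germ-layer list that rose, where 0.462% of all genes did.

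Fst, which encodes the secreted activin antagonist follistatin, had 158, 59.8 and 115 RPM at 24 h and 302 and 340 RPM at 48 h (log2 fold change 1.60, SE 0.28, limma, adjusted p = 0.000649). Tdgf1, which encodes the Nodal co-receptor Cripto, had 184, 105 and 229 RPM at 24 h and 444 and 415 RPM at 48 h. The groups were separate in both genes. Tdgf1 rose by 1.35 (SE 0.26, limma, adjusted p = 0.00171), and without library 24 its change of 1.30 missed the threshold by little (limma, adjusted p = 0.05004). In siCtl cells the log2 changes were 1.82 for Fst and 1.08 for Tdgf1, and both had risen there too.

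Reads of these genes began further from the annotated start at 48 h. The median first aligned nucleotide was 83 at 24 h and 470 at 48 h for T, 602 and 1623 for Fst, and 830.5 and 943 for Tdgf1. The part of this shift in the changes of abundance was not tested.

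Among 15 tested genes of the pluripotency list, Tdgf1 was the 1 that rose, and none fell, where 0.462% of all genes rose and 0.495% fell. Without overlap, 7 (46.7%) were higher and 1 (6.67%) was lower, against 14.8% and 10.5% of all genes. In siCtl cells 3 of the list rose and 1 fell. The median log2 change of the list was 0.32 in siLarp1 and 0.49 in siCtl cells, beside 0.08 and 0.03 over all genes tested. Nodal, the ligand of that pathway, had a change of 1.04 (limma, adjusted p = 0.235) and its inhibitor Lefty1 one of 1.30 (limma, adjusted p = 0.290). Utf1, a chromatin factor of pluripotent cells, had 409, 441 and 573 RPM at 24 h and 352 and 199 RPM at 48 h. Its groups did not overlap, and its log2 change of −0.79 missed the threshold (limma, adjusted p = 0.127), while in siCtl cells it fell by 1.27 on the log2 scale. Nanog had a change of 0.87 in siLarp1 cells (limma, adjusted p = 0.486) and rose by 1.88 in siCtl cells.

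Thrap3, a protein of splicing and transcription complexes, had 58.4, 44.9 and 44.6 RPM at 24 h and 191 and 141 RPM at 48 h. These values do not overlap and give a log2 fold change of 1.72 (SE 0.38, limma, adjusted p = 0.00953), where siCtl cells had 0.12. Without library 22 the adjusted p of Thrap3 was 0.0937 and without library 24 it was 0.242 (limma). Tsr1, a factor of small ribosomal subunit maturation, had 66.7, 89.7 and 82.8 RPM at 24 h and 216 and 158 RPM at 48 h (log2 1.20, limma, adjusted p = 0.0435). The call of Tsr1 was lost on leaving out library 19, 21, 22 or 24 (limma, adjusted p from 0.0913 to 0.460), and also on leaving out the siCtl library 19 at 24 h or 25 at 48 h (limma, adjusted p = 0.0556 and 0.0505). It was the 1 gene of 45 tested in the nucleolar ribosome biogenesis list that rose, and none fell, against 0.462% and 0.495% of all genes.

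In the list of SR and hnRNP splicing factors, 2 of 33 tested genes rose and none fell, and 14 (42.4%) were higher without overlap. Of all genes 0.462% rose and 14.8% were higher without overlap. Its median log2 change was 0.38 in siLarp1 cells and 0.19 in siCtl cells. Ptbp1, a repressor of neuronal exons, had 250, 336 and 331 RPM at 24 h and 549 and 489 RPM at 48 h (log2 0.76, limma, adjusted p = 0.0277). Hnrnpa2b1, which binds pre-mRNA, had 442, 598 and 363 RPM at 24 h and 753 and 705 RPM at 48 h (log2 0.68, limma, adjusted p = 0.0277). Both were higher in each library at 48 h than in any at 24 h. With libraries scaled by size factors, neither passed the threshold (limma, adjusted p = 0.0564 and 0.0651), so that no member of this list was called. Both calls were also lost on leaving out library 19, 22, 24 or 25, with adjusted p-values from 0.0617 to 0.333 for Ptbp1 and from 0.0739 to 0.329 for Hnrnpa2b1 (limma).

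The other genes that rose were Cd209c, Gpx4-ps2, Grsf1, Wiz, D10Wsu102e, Scd2 and Vmn2r97, with log2 changes from 0.79 to 2.59. Scd2, a stearoyl-CoA desaturase of fatty acid synthesis, had 300.3, 262 and 229 RPM at 24 h and 438 and 556 RPM at 48 h (log2 0.90, limma, adjusted p = 0.0108). It missed the threshold without library 22 or 25 (limma, adjusted p = 0.113 and 0.163). Cd209c, a gene of the C-type lectin family, rested on 5, 0 and 2 reads at 24 h and 15 and 8 reads at 48 h. Its log2 change of 2.59 was 1.64 without library 21, and it missed the threshold without library 21 or 24 (limma, adjusted p = 0.211 and 0.259). Its reads ended at a median of nucleotide 854 of a transcript of 1550 nt, so they do not reach the annotated 3′ end. This was not particular to Cd209c. Among genes that fell, reads of Rps15a ended at nucleotide 487 of 5179 and those of Rpl37 at 373 of 835, while those of Rps15 ended at 500 of 500. Gpx4-ps2 is a near-identical copy of Gpx4, and its value is uncertain. Gpx4-ps2 missed the threshold without library 25 (limma, adjusted p = 0.0617). Grsf1 and Wiz missed it on leaving out any 1 of the 5 siLarp1 libraries, with adjusted p-values from 0.0656 to 0.333 and from 0.05004 to 0.158 (limma), and Grsf1 also without the siCtl library 19 (limma, adjusted p = 0.0556).

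The 2 smallest adjusted p-values belonged to D10Wsu102e and Vmn2r97. D10Wsu102e had 2328, 2310 and 2585 RPM at 24 h and 4880 and 4778 RPM at 48 h (log2 1.00, SE 0.10, limma, adjusted p = 3.67e-10). Vmn2r97, annotated as a vomeronasal receptor, had 2770, 2235 and 2642 RPM at 24 h and 4461 and 4305 RPM at 48 h (log2 0.79, SE 0.09, limma, adjusted p = 2.89e-09).

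Most reads of both began at 1 place inside the annotated transcript. In Vmn2r97, 96.6% began within 50 nt of nucleotide 1664 of 3711, and in D10Wsu102e 87.0% began within 50 nt of nucleotide 94739 of 123179. The 480-nt windows from these positions had 212 of 461 words of 20 bases in common (45.99%). Of the 11055 reads of the 2 genes in all libraries, 117 had a second alignment to the repeat ETnERV-int and 106 to MMETn-int, both of endogenous retroviruses. These values are therefore those of the aligned stretch and not of the whole gene.

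Of the 99 TOP genes, all of which were tested, 14 fell and none rose in siLarp1 cells at 48 h, against 0.495% that fell among all genes tested. The list is the union of 48 ribosomal proteins of the large subunit, 33 of the small subunit and 18 other TOP mRNAs. Its median log2 change was −0.18, beside 0.08 over all genes, and 88 members were below 0. In siCtl cells the median was −0.07 and 5 members fell. Groups did not overlap, with lower values at 48 h, in 61 of the 99 (61.6%), against 10.5% of all genes. Size factors moved the median of all genes from 0.08 to −0.03, and with them 46 TOP genes and 63 genes in all fell, while 13 rose.

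The large subunit held 8 of these genes, and all 48 members were below 0 with a median of −0.22. Rpl39, a small protein at the exit tunnel of the ribosome, had 2795, 2647 and 2802 RPM at 24 h and 1974 and 1792 RPM at 48 h. The libraries at 48 h were lower without overlap, and Rpl39 fell by 0.54 on the log2 scale (SE 0.10, limma, adjusted p = 0.00127). Rpl21 had 2628, 2691 and 2744 RPM at 24 h and 1839 and 1958 RPM at 48 h, also without overlap, and fell by 0.51 (SE 0.10, limma, adjusted p = 0.00193). Rpl32 had 6716, 6886 and 6730 RPM at 24 h and 5621 and 5566 RPM at 48 h (log2 −0.28, SE 0.06, limma, adjusted p = 0.00953). In siCtl cells the log2 changes of Rpl39, Rpl21 and Rpl32 were −0.36, −0.22 and −0.03. Without library 24 the changes of Rpl21 and Rpl32 missed the threshold (limma, adjusted p = 0.171 for each), and Rpl32 also without library 25 (limma, adjusted p = 0.0617). Rpl28, Rpl37, Rpl23 and Rpl23a also fell, with log2 changes from −0.44 to −0.29. Each of these 4 missed the threshold without library 24 (limma, adjusted p from 0.152 to 0.656), where the change of Rpl37 was −0.20 in place of −0.36. Rpl23, Rpl23a and Rpl28 also missed it without library 21, Rpl23a and Rpl37 without library 19, Rpl23a and Rpl28 without library 25 and Rpl37 without library 22 (limma, adjusted p from 0.0651 to 0.137).

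Of the 33 small-subunit genes, 6 fell. Among them, Rps26, Rps15, Rps15a, Rps9 and Rps23 had log2 changes from −0.51 to −0.30. All 5 missed the threshold without library 19, 22 or 24 (limma, adjusted p from 0.0887 to 0.634), and without library 24 the change of Rps26 was −0.31. Rps15, Rps15a and Rps9 also missed it without library 25, and Rps9 without library 21 (limma, adjusted p from 0.0550 to 0.168). On leaving out siCtl libraries, which share the estimate of the spread, Rps26 missed it without library 19 and Rps9 without library 19, 24 or 25 (limma, adjusted p from 0.0539 to 0.0649). The list median was −0.19. Rps26 and its copy Rps26-ps1, the gene that fell outside the TOP list, are near-identical, so how reads divide between them is uncertain. Both had log2 changes of −0.51.

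The 18 other TOP mRNAs, among them the elongation factor Eef1a1, the nucleolar chaperone Npm1 and the poly(A)-binding protein Pabpc1, had no member that rose or fell. Their median was −0.02. Eef1a1 had a log2 change of −0.02 and Pabpc1 one of 0.28. The abundant ribosomal protein genes Rplp1 and Rps12 did not pass either, with −0.18 (limma, adjusted p = 0.0703) and −0.06.

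**Figure D2:**
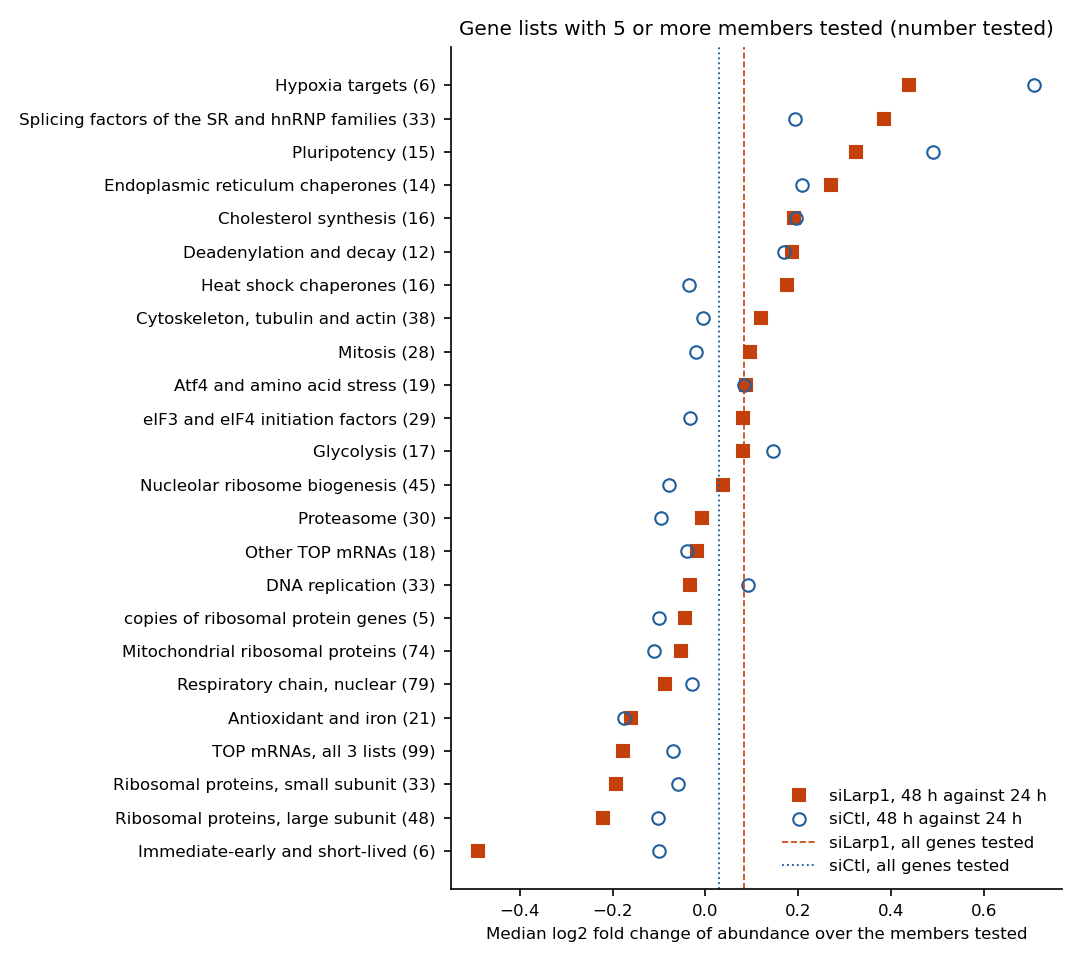
Median log2 fold change of abundance from 24 h to 48 h over the members tested in each gene list, as squares for siLarp1 and open circles for siCtl cells, with the number tested in parentheses and the medians of all genes as vertical lines. Both ribosomal protein lists lie left of the lines, at −0.22 and −0.19 in siLarp1 cells, and the splicing factor list lies right of them at 0.38.

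The TOP motif is defined at the 5′ end of an mRNA. Among TOP genes that fell, those whose annotated transcript starts with C and at least 4 further C or T were picked. The 5′ ends of 2 of them are shown. They are the first 20 nucleotides of exon 1 of the annotated transcript with the most reads, 5′ to 3′ in GRCm38, and capitals mark the unbroken run of C and T from the first base.
Rpl32 (chr6:115808728-115808747, minus strand): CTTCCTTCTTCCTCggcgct
Rpl37 (chr15:5116645-5116664, plus strand): CTCTTCCggtctctttggcc
The runs are 14 and 7 nt long. A start with C followed by at least 4 further C or T was present at the annotated first base in 3 of the 14 TOP genes that fell, in 13 of the 99 TOP genes (13.1%), in 84 of 3010 genes with an annotated sequence (2.79%) and in 0 of the 14 that rose. Reads of Rpl32 ended at a median of nucleotide 510 of 517, but those of Rpl37 at 373 of 835. The annotated transcript with the most reads therefore need not be the molecule read. Annotated starts need not be the starts used in these cells, and reads do not resolve the first nucleotides, so an absent run says only that these letters are not at the annotated start.

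As a share of all kept reads, TOP transcripts made up 35.05%, 34.9% and 34.6% at 24 h and 30.1% and 31.5% at 48 h. The siLarp1 libraries at 48 h were below each at 24 h, with a difference of −4.09 percentage points between the means (34.9% ± 0.218, SD, n = 3, against 30.8% ± 0.976, SD, n = 2). The exact permutation test gave p = 0.2, two-sided, the smallest that 2 against 3 libraries allow (adjusted p = 0.5 over 10 measures). The siCtl libraries went from a mean of 34.9% ± 0.452 (SD, n = 3) to 33.1% ± 0.338 (SD, n = 2), a difference of −1.78 points. The change in siLarp1 cells minus that in siCtl cells was −2.31 percentage points (exact permutation of treatment labels within time points, p = 0.2, adjusted p = 0.708).

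Ribosomal protein mRNAs are short, and abundance at 48 h moved with the length of reads in both treatments. Genes were grouped by the 90th percentile of the aligned span of their reads. Among non-TOP genes with spans of up to 600 nt the median log2 change was −0.10 in siLarp1 and −0.07 in siCtl cells, and among those over 2000 nt it was 0.27 and 0.19. The 51 TOP genes of up to 600 nt had a median of −0.24 in siLarp1 and −0.08 in siCtl cells. Between 600 and 1000 nt the 28 TOP genes had −0.17 and the 435 non-TOP genes −0.09 in siLarp1 cells. Between 1000 and 1500 nt the 12 TOP genes had −0.06 and the non-TOP genes 0.02.

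**Figure D3:**
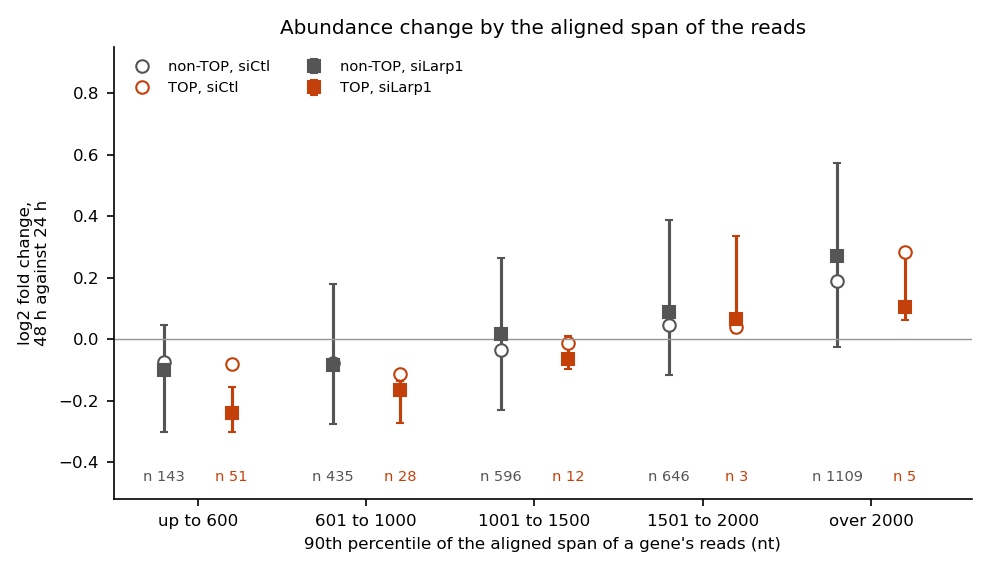
Median log2 fold change of abundance from 24 h to 48 h in classes of aligned span (nt), for TOP and non-TOP genes, with filled squares for siLarp1, bars from the 25th to the 75th percentile over genes, and open circles for siCtl cells. Medians are higher at longer spans in both kinds of gene in siLarp1 cells, and TOP genes of up to 600 nt lie at −0.24 against −0.10 for non-TOP genes.

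Within the 662 tested genes with spans of up to 1000 nt, scaled to the reads on these genes alone, 4 genes rose and 2 fell, a setting chosen after seeing the data. Rpl39 and Rps26-ps1 were the 2 that fell. The TOP share of the reads on these genes was 61.0%, 61.5% and 59.9% at 24 h and 58.3% and 59.1% at 48 h, again without overlap, with a difference of −2.06 percentage points (exact permutation p = 0.2, two-sided) in place of −4.09. In siCtl cells this difference was −0.222. In transcripts of 1500 to 6000 nt the median read covered 51.0%, 49.0% and 51.6% of the transcript at 24 h and 43.2% and 44.2% at 48 h in siLarp1 libraries, and in siCtl libraries 52.7%, 53.2% and 51.5% and then 48.9% and 40.9%. Reads of Rpl32 began at a median of nucleotide 15 at 24 h and 16 at 48 h.

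Most genes that differed in siLarp1 cells moved the same way in siCtl cells, and no gene had a change that differed between the treatments at an adjusted p under 0.05. Of the 29 genes, 28 had the same sign in siCtl cells, 13 of 14 that rose and 15 of 15 that fell, where 61.8% of all genes had the same sign. The treatments share no library. They share the pool at 48 h but were pooled apart at 24 h. The median log2 change of the genes that rose was 1.16 in siLarp1 and 1.08 in siCtl cells, and that of the genes that fell was −0.36 and −0.16. These genes were picked by their change in siLarp1 cells, so their siLarp1 medians can be overstated beside those in siCtl cells. Called in both treatments were 9 genes that rose, D10Wsu102e, Fst, Gpx4-ps2, Grsf1, Scd2, T, Tdgf1, Vmn2r97 and Wiz, which are 64.3% of those that rose in siLarp1 cells and 26.5% of those that rose in siCtl cells. Rpl39 and Rps15 fell in both.

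**Figure D4:**
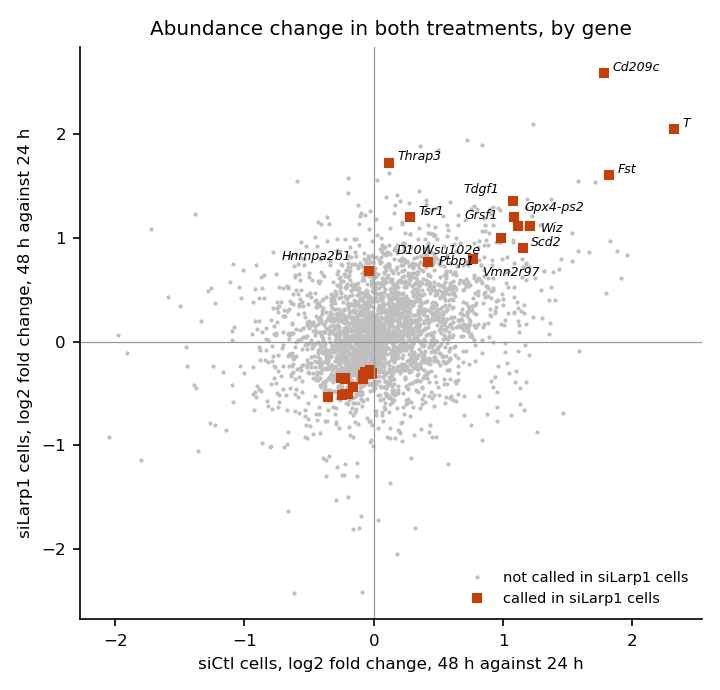
Log2 fold change of abundance from 24 h to 48 h in siCtl cells (x axis) and siLarp1 cells (y axis) for the 3033 genes tested, with the 29 genes called in siLarp1 cells as red squares. All but 1 of the 29, Hnrnpa2b1, lie in the quadrants of equal sign.

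The limma test of the difference between treatments called 0 of 3033 genes (74 above and 60 below at an unadjusted p under 0.05, smallest adjusted p = 0.893). Hnrnpa2b1 had a log2 change of 0.68 in siLarp1 and −0.03 in siCtl cells, and Thrap3 one of 1.72 and 0.12, both with larger values in siLarp1 cells. Their differences were 0.72 and 1.61 and did not pass. Rpl32 had a change of −0.28 and −0.03, a difference of −0.25 (limma, unadjusted p = 0.00250, not past the threshold). Tcp1, a subunit of the chaperonin TRiC, had 526, 635 and 560 RPM at 24 h and 740 and 838 RPM at 48 h in siLarp1 cells, with a difference between treatments of 0.77 that also missed the threshold (limma, unadjusted p = 0.000651).

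Tails were read for every kept molecule. The share of tails under 30 nt was higher at 48 h, in all transcripts and in TOP transcripts. In all transcripts it was 2.66%, 3.22% and 2.63% at 24 h and 4.20% and 3.37% at 48 h in siLarp1 libraries. The groups did not overlap, and the difference of 0.951 percentage points had an exact permutation p of 0.2 (two-sided, the smallest allowed, adjusted p = 0.5). Without library 24 the difference was 0.535 points. TOP transcripts had 2.87%, 3.14% and 3.14% at 24 h and 4.44% and 4.08% at 48 h, a difference of 1.21 points without overlap (exact permutation p = 0.2). Non-TOP transcripts had 2.58%, 3.31% and 2.36% at 24 h and 4.14% and 3.06% at 48 h. Here library 25 at 48 h lay below library 21 at 24 h, so the groups overlapped (difference 0.848 points, exact permutation p = 0.4). That difference was 0.311 points without library 24 and 1.38 without library 25. In siCtl cells the share of tails under 30 nt was higher at 48 h without overlap in all, TOP and non-TOP transcripts. The differences there were 0.630, 0.722 and 0.568 points. For TOP transcripts the changes of the treatments differed by 0.486 points (exact permutation p = 0.633).

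Median tail lengths of TOP transcripts were 95, 93.6 and 95.6 nt at 24 h and 89.6 and 93.5 nt at 48 h in siLarp1 cells. The highest value at 48 h lay just under the lowest at 24 h, and the difference was −3.15 nt (exact permutation p = 0.2, two-sided). It was −1.21 nt without library 24 and −5.09 nt without library 25. The medians of all transcripts, 102.7, 100.9 and 104.3 nt at 24 h and 97.7 and 103.1 nt at 48 h, overlapped. Without library 24 at 48 h, that difference changed sign, from −2.20 to 0.498 nt. In siCtl cells the difference was −6.52 nt for TOP transcripts and −5.15 nt for all transcripts, both without overlap. The difference between treatments reached its smallest p, 0.117, for TOP tails of 30 to 90 nt (exact permutation, 120 arrangements, adjusted p = 0.708).

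**Figure D5:**
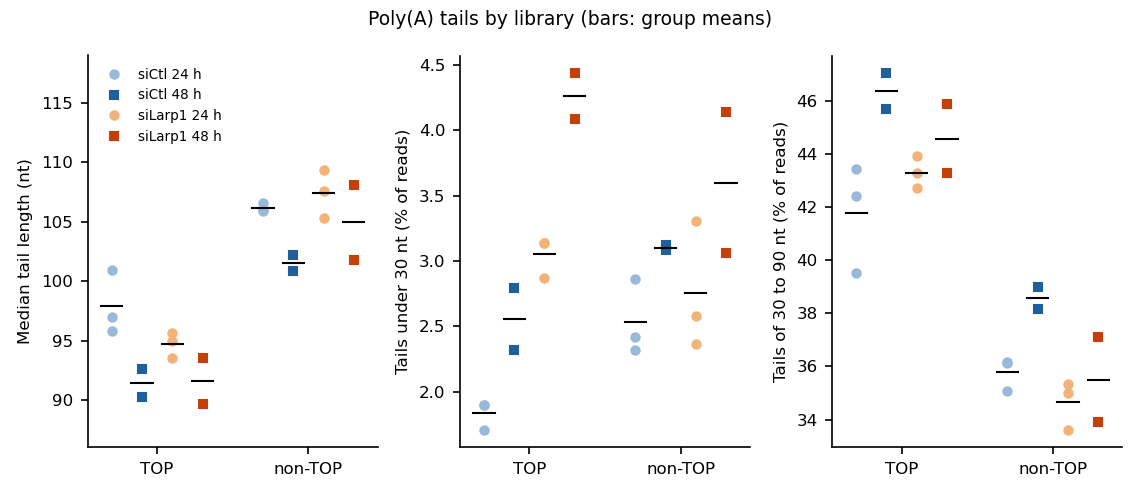
Median tail length (nt) and the share of reads with tails under 30 nt and of 30 to 90 nt (%), 1 point per library and group means as bars, for TOP and non-TOP transcripts. TOP transcripts of siLarp1 cells at 48 h have the highest mean share under 30 nt, 4.26%.

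Between sequencing runs, the median tails of library 24 were 98.0 and 96.8 nt and those of library 25 were 103.5 and 101.8 nt in 2 runs each, the latter a gap close to the −2.20 nt between the groups. Those of library 19 ranged from 102.4 to 103.0 nt over 3 runs. The RNA standard with a tail of 16 nt had a median of 25.6 nt (20 reads, quartiles 17.5 and 51.3 nt) in siLarp1 library 22 at 24 h. In library 25 at 48 h it had 31.0 nt, on 4 reads. Both medians lay above its length, and some of its reads fell outside the class under 30 nt. The standard with a tail of 32 nt had medians of 33.3 nt (28 reads) in siLarp1 library 22 at 24 h and 33.5 nt (18 reads) in library 25 at 48 h. The standard of 64 nt had 60.4 nt and 59.2 nt. The standard named 128 in the data had 63.1 nt (43 reads) and 55.6 nt (24 reads), and that named 256 had 114.9 nt and 108.9 nt (39 reads each). The study's list of oligonucleotides for the standards holds neither of these lengths. It includes some without an encoded tail, to which tails were added by enzyme. The true lengths of both longer standards are therefore not known here. Both were read lower in library 25, with quartiles that overlapped. The part of this in the tail differences was not tested. The remaining siLarp1 libraries held too few reads of the standards for such a comparison.

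Gene by gene, 0 of 2158 genes had a longer or shorter mean tail at 48 h in siLarp1 cells at an adjusted p under 0.05 (limma on log2 tail length, 29 longer and 151 shorter at an unadjusted p under 0.05, smallest adjusted p = 0.155). Alternatives called up to 14 genes as shorter. The median log2 change was −0.06 in siLarp1 and −0.07 in siCtl cells. Medians were longer without overlap in 7.04% of the genes and shorter without overlap in 13.9%. Values were below 0 in 1391 genes (64.5%), and in 89 of the 99 TOP genes (89.9%). In siCtl cells 94 TOP genes were below 0. For tails under 30 nt, 0 genes were called by limma (88 higher and 28 lower unadjusted), and the share was higher in 84 of 99 TOP genes (84.8%) and 59.0% of all genes. In siCtl cells it was higher in 87 TOP genes and in 1652 of all 2158. The median change in log2 odds over all genes was 0.23 in siLarp1 and 0.60 in siCtl cells. Over TOP genes it was 0.55 and 0.49.

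The smallest p for a shorter tail belonged to Psmb7, a proteasome subunit, with median tails of 101, 97.2 and 93.3 nt at 24 h and 73.0 and 84.7 nt at 48 h. The groups were separate, and the adjusted p was 0.155 (limma). Fth1, the ferritin heavy chain, had 100.7, 102.2 and 101.6 nt at 24 h and 86.9 and 94.9 nt at 48 h (limma, adjusted p = 0.276). Eef1a1 had 109, 109 and 113 nt at 24 h and 98.0 and 106 nt at 48 h (limma, adjusted p = 0.276), again without overlap. Among genes with longer tails, T had medians of 93.5, 55.0 and 55.2 nt at 24 h and 103.3 and 102.6 nt at 48 h on few reads (limma, adjusted p = 0.413). None of these passed the threshold. The log2 changes in tail length of Psmb7, Fth1, Eef1a1 and T were −0.34, −0.21, −0.12 and 0.53 in siLarp1 cells. In siCtl cells they were 0.03, −0.14, −0.12 and 0.10.

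For tails of 30 to 90 nt, 1 gene rose (0.0463%), Rps2-ps10, a near-identical copy of the ribosomal protein gene Rps2. Its share was 39.4%, 37.3% and 35.9% at 24 h and 43.9% and 42.9% at 48 h, without overlap (log2 odds 0.37, SE 0.08, limma, adjusted p = 0.0332). On leaving out library 21, 22, 24 or 25 the count was 0, and without library 19 it was 2. In siCtl cells the share of Rps2-ps10 was also higher at 48 h without overlap, with a log2 odds change of 0.47. It was 32.6%, 31.2% and 33.0% at 24 h and 40.7% and 39.2% at 48 h there. For this class 13 genes rose in siCtl cells (0.602%). Single TOP genes went the same way in the class under 30 nt without passing: Rps27a had 3.41%, 3.86% and 3.56% at 24 h and 5.14% and 5.22% at 48 h, and Rps12 had 1.40%, 1.26% and 1.64% and then 2.26% and 2.81%. Both were higher in each library at 48 h than in any at 24 h, also in siCtl cells. There Rps27a had 1.47%, 1.65% and 1.78% at 24 h and 1.98% and 2.05% at 48 h. Rps12 had 0.845%, 0.674% and 0.469% and then 1.40% and 0.906%. The share of all genes that were higher without overlap in this class was not counted.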

How the data were processed

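The deposited table held 1 line per alignment, with the transcript, the library, the tail length in nt and a quality tag, and no normalized values. As deposited, it also held the barcode confidence of each read, a fraction, and the mapping quality, a score of Minimap2. The authors called bases with Guppy, demultiplexed with Deeplexicon, aligned with Minimap2 2.20 to mouse GENCODE transcripts, repeats and RNA standards, and estimated tails with Nanopolish. The table gives each library's group but not its replicate number in the labels, so libraries were assigned to groups only. Alignments of class mRNA and tag PASS were kept, without mitochondrial transcripts and pseudogenes.

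Reads were tallied per gene and tested with limma 3.58.1 (R 4.3.3), voom weights and total kept reads as scale, in 1 fit of 4 groups over 10 libraries. Genes needed 30 reads over the siLarp1 libraries, and for tails also 5 in each library. Tails were tested on mean log2(nt + 1), and classes on log2 odds with 0.5 added. Library-level measures used exact permutation tests. The test scripts were checked on simulated data. Coordinates came from GENCODE vM21 (GRCm38), which held 97.9% of transcripts.

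Genes named were Larp1, genes past the threshold without overlap, those of smallest p for tails and treatment differences, the most read genes, markers and the 2 most read of each list. Members and lists were chosen with earlier results of these data known. Nodal, Lefty1, Ero1l and the read positions of Cd209c, D10Wsu102e and Vmn2r97 were chosen after their values were seen. So were the read ends of Rps15a, Rps15, Rpl37 and Rpl32. Some genes past the threshold are not reported here by name.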

Additional observations from a re-analysis of the deposited data

Results flagged for a closer look

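Reads aligned to repeats stood outside the comparisons of genes. Reads on ERVK elements, a class of endogenous retroviruses with long terminal repeats, were 2678, 2789 and 3056 per 1000000 kept reads in siLarp1 libraries at 24 h and 4418 and 4214 at 48 h, a mean of 4316 at 48 h and 1.52 times that at 24 h. They were at 2695.5, 2347 and 2865 in siCtl libraries at 24 h and 3442 and 3621 at 48 h, 1.34 times. Both siLarp1 libraries at 48 h were thus above every other library. ERVL-MaLR elements were at 501, 449 and 541 in siLarp1 libraries at 24 h and 728 and 614 at 48 h, with a mean of 671 and a ratio of 1.35, where the siCtl libraries had a ratio of 1.28. The siLarp1 libraries at 48 h again lay above the others, library 25 by little over the siCtl libraries at 48 h. L1 elements, by contrast, had ratios of 1.02 in siLarp1 and 1.15 in siCtl cells. No test was run on these values, and the pool at 48 h cannot be told apart from time.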

How the results depend on the processing

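The count of genes that rose, 14, was 13 with size factors and 4 in genes with spans of up to 1000 nt. Leaving out 1 library gave 9 to 17. It was 9 without the siLarp1 library 19, 22 or 24. The count that fell, 15, was 63 with size factors, 30 with the limma trend fit, 25 with transcripts in place of genes, 6 at a barcode confidence of at least 0.9 and 2 in genes of up to 1000 nt. Without 1 library it was 3 to 21: 6 without library 19, 3 without library 24 and 9 without library 25. The cause of these moves was not tested, except that fewer genes or libraries entered the fit where named.

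The count of genes with shorter tails was 0, and 1 in siLarp1 libraries only, 14 with all quality tags and 2 with equal weights. With all quality tags, 3 genes had a higher share under 30 nt. The count for 30 to 90 nt, 1, was 0 in siLarp1 libraries only, with all quality tags, at a barcode confidence of 0.9, with equal weights and with centring on each library, and 0 to 2 without 1 library. The count of genes whose tail change was above that in siCtl cells was 0 to 1 without 1 library, and 1 without the siLarp1 library 24 at 48 h.

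Without 1 library, median tails differed by −4.90 to 0.498 nt in all and by −5.65 to 0.713 nt in non-TOP transcripts, and the 30 to 90 nt share by −0.767 to 2.06, −0.0101 to 2.57 and −0.739 to 2.43 points in all, TOP and non-TOP transcripts. The sign of these 5 changed without library 24. The lower TOP share kept its direction in all alternatives run and was −4.78 to −3.40 points without 1 library. The comparison of 48 h with 24 h could not be blocked, since the times share no library number in the table. The treatments share these numbers within a time, so a replicate block by number, chosen after seeing the data, was fitted to the difference between treatments. It called 0 of 3033 genes for abundance (limma, 73 above and 85 below at an unadjusted p under 0.05, smallest adjusted p = 0.0851) and 0 of 2158 for tails (66 and 45, smallest adjusted p = 0.0768). Deviations of libraries with 1 number correlated by 0.0237 to 0.130 across genes in abundance and −0.0185 to 0.0561 in tails, so the numbers were not taken to pair them. In abundance all 10 libraries correlated best with their own number, at most a hint from the data and not from the design. These matches depend on each other, since deviations were taken from group means and each pair of libraries enters from both sides. At 48 h the deviations within a group are exact opposites, so the matches there are 1 outcome. They cannot decide whether the numbers pair the libraries. Depth limits single genes: Larp1 had 19 reads in 5 libraries.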

Other observations

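Other gene lists had few or no members past the threshold in siLarp1 cells. The 79 nuclear genes of the respiratory chain, which are also short, had none called and a median log2 change of −0.09 (siCtl −0.03), with 21 lower without overlap (26.6%, against 10.5% of all genes). Antioxidant and iron genes had none of 21 called and a median of −0.16 (siCtl −0.18). Among hypoxia targets, 0 of 6 tested were called, with a median of 0.44 in siLarp1 and 0.71 in siCtl cells, and Ero1l, an endoplasmic reticulum oxidase, had a change of 1.39 (limma, adjusted p = 0.143). Chaperones of the endoplasmic reticulum had none of 14 called and a median of 0.27 (siCtl 0.21). Among deadenylation and decay factors none of 12 was called, with a median of 0.19 (siCtl 0.17). Immediate-early genes had the lowest median, −0.49 over 6 genes with none called, where siCtl cells had −0.10.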
